A study of Homo sapiens with 9 samples.

Results

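Chaperones of the endoplasmic reticulum (ER) and components of the unfolded protein response were followed in Huh7 cells given PGG, a plant polyphenol in which galloyl groups are attached to glucose (a pentagalloyl glucose). The members were the 32 listed genes of this system, each taken with all probe sets whose annotation holds its symbol and no other. The rule gave 83 of the 54613 probe sets tested and 31 of the 19775 genes. SYVN1, an ER ubiquitin ligase, was without a value, since its 1 probe set is shared with another gene. Huh7 is an established human hepatocellular carcinoma line, and 9 Affymetrix arrays of its total RNA fell into 3 groups of 3 that the labels call biological replicates. The PBS group received the solvent for 48 hours, the PGG 6 h group received 0.1 mg/mL PGG for 6 hours, and the PGG 48 h group received the same dose for 48 hours. The descriptions of the PBS arrays instead give 0 hours of PGG. No PBS array at 6 hours was analysed, so PGG 6 h and PBS also differ in the length of culture. Both comparisons with PBS use the same 3 PBS arrays. In RNA from whole cultures, a change in which cells are present and a change in RNA per cell cannot be told apart.

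Proteins entering the secretory pathway fold in the ER with the help of chaperones, lectins and disulfide isomerases, and those that fail are drawn back to the cytosol and degraded (ER-associated degradation, ERAD). When unfolded proteins collect, the membrane sensors PERK (gene EIF2AK3), IRE1 (ERN1) and ATF6 are activated: PERK slows translation, IRE1 splices XBP1 mRNA into the form that encodes an active transcription factor, and ATF6 is cleaved to release another. These factors raise the genes of chaperones, ERAD and vesicle export, through promoter elements that include the ER stress response elements. Hepatocytes export much plasma protein and carry a large ER. The arrays measure mRNA only, and neither XBP1 splicing, nor ATF6 cleavage, nor phosphorylation of PERK and IRE1 was measured.

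The promoter elements by which this response is usually described are shown first, since the members were compared by them. RefSeq windows (GRCh38.p14) from 250 bases before to 50 after the start of transcription were available for 29 member genes, 28 of them measured. PDIA3, DERL1 and SEC24D had none. Both strands were searched for the ER stress response element (ERSE, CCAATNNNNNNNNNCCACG), ERSE-II (ATTGGNCCACG), the unfolded protein response element (UPRE, TGACGTGG), an ATF4-type element (TTGCATCA) and the core ACGTG. ERSE was found in 25 of the 27305 genes with a window (0.0916%) and in 7 of the 29 member genes. ERSE-II was found in 19 genes (0.0696%) and in 3 member genes. UPRE stood in 253 genes (0.927%) and in 1 member gene, the ATF4-type element in 295 (1.08%) and in 1, and ACGTG in 6790 (24.9%) and in 15. A match of letters is a description and not a bound site. Every ERSE and ERSE-II match in a member is given below, read 5′ to 3′ in the direction of the gene, with the match in capitals and 15 bases on each side. A match on the opposite strand reads as its reverse complement. The UPRE match of HYOU1 overlaps its first ERSE-II match.
HSPA5, ERSE, chr9:125241376-125241424, minus strand: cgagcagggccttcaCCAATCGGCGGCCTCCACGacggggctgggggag
HSP90B1, ERSE, chr12:103930201-103930249, plus strand: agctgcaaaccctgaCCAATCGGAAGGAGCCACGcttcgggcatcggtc
HSP90B1 (second match), ERSE, chr12:103930306-103930354, plus strand: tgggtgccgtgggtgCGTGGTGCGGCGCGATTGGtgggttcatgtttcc
CALR, ERSE, chr19:12938369-12938417, plus strand: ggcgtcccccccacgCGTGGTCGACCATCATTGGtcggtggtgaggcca
CANX, ERSE, chr5:179698763-179698811, plus strand: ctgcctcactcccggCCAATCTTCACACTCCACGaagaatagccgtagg
PDIA6, ERSE, chr2:10812838-10812886, minus strand: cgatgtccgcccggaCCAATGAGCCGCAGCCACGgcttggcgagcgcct
CRELD2, ERSE, chr22:49918539-49918587, plus strand: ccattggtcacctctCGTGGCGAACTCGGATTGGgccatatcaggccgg
XBP1, ERSE, chr22:28800588-28800636, minus strand: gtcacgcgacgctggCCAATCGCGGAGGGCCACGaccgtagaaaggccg
HERPUD1, ERSE-II, chr16:56932010-56932050, plus strand: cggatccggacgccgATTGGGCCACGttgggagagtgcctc
HYOU1, ERSE-II, chr11:119057365-119057405, minus strand: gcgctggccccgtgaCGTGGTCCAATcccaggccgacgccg
HYOU1 (second match), ERSE-II, chr11:119057259-119057299, minus strand: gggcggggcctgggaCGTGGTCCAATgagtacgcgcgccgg
SDF2L1, ERSE-II, chr22:21642099-21642139, plus strand: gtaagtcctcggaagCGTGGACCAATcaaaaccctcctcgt

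Whole windows of 300 bases are shown for HERPUD1, which holds an ERSE-II and an ATF4-type element, and for EIF2AK3 and RCN1, the members with the largest rise and the largest fall against PBS. Capitals mark every match to the 5 motifs. The windows of EIF2AK3 and RCN1 hold the ACGTG core and none of the 4 longer motifs.
HERPUD1, chr16:56931892-56932191, plus strand: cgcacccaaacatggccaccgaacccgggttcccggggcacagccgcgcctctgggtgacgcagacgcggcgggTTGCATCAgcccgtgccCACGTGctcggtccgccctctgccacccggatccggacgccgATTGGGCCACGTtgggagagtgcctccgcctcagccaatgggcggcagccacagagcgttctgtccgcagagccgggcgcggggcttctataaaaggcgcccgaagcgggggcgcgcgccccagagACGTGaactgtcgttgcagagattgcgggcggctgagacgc
EIF2AK3, chr2:88627415-88627714, minus strand: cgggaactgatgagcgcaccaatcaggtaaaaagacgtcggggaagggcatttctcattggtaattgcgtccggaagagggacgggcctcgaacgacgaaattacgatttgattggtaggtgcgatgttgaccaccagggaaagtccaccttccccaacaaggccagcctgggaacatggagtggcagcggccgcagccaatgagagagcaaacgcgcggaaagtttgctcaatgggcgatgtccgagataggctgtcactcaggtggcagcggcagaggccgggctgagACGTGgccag
RCN1, chr11:32090824-32091123, plus strand: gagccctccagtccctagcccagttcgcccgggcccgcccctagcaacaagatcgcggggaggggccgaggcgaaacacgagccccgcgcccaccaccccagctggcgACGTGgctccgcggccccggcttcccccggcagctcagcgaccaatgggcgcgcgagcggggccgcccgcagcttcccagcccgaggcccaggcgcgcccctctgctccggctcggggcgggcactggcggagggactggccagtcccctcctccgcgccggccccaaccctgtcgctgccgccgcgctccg

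The cells carried the markers of a hepatocyte line, and all PGG 48 h arrays stood apart in a measure of RNA quality. All 11 measured hepatocyte markers of 13 listed lay above the array median on every array, with albumin (ALB) at 13.42 to 13.54 on the log2 scale. Of the measured markers of other cells, 1 of 2 for blood and immune cells, 1 of 3 for endothelium and 1 of 4 for fibroblasts lay above the array medians (5.16 to 5.20) on every array: CD3E at 5.32 to 5.72, PECAM1 at 5.96 to 6.85 and COL1A1 at 7.18 to 7.56. PTPRC, the pan-leukocyte marker, lay at 3.27 to 3.53, CDH5 at 3.06 to 3.52 and COL3A1 at 3.86 to 4.25. The mean of each of these 3 lists stayed within 4.34 to 4.51, 4.55 to 4.88 and 4.94 to 5.16 over all arrays. The 3′ minus 5′ difference of the ACTB control probe sets, which grows as RNA degrades, was 0.96 to 1.57 in PBS, 1.13 to 1.23 in PGG 6 h, and 2.14, 4.03 and 2.67 in replicates 1 to 3 of PGG 48 h. On PGG 48 h replicate 2, 5 of the 83 member probe sets lay more than 0.5 from the mean of the other 2 arrays, all of them below it (6.02%, against 3.59% of all probe sets). On PBS replicate 1 it was 8 of 83 (9.64%, against 2.56% of all), and on PGG 48 h replicate 1 it was 7 of 83, all above (8.43%, against 2.45% of all). The same difference for GAPDH was 0.13 to 0.35 in PBS and 0.27, 1.83 and 0.39 in PGG 48 h. By ACTB all 3 PGG 48 h arrays lay above every other array. In the 48 h differences RNA quality and treatment therefore cannot be told apart, and leaving out 1 array does not change that. The part of RNA quality in the 48 h differences was not tested, and values without single arrays are given where they matter. The number of arrays limits the precision.

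At 6 hours the members moved in both directions, and at 48 hours most of them were above PBS. Genes were read from their probe set with the highest mean, differences are on the log2 scale, and a gene is called at an adjusted p under 0.05 from limma over all 54613 probe sets. In the paragraphs on single genes, a range in parentheses directly after a difference is its 95% confidence interval. A value that follows a difference, in parentheses or after its interval, is its adjusted p. Where parentheses follow a call lost or gained without an array, they hold the log2 differences found then and no interval. Where they follow a statement on other probe sets that gives no difference itself, their first values are log2 differences too. Against PBS, 12 of 31 member genes were higher at 6 hours (38.7%) and 8 were lower (25.8%), where over all 19775 genes 15.5% were higher and 15.5% lower. At 48 hours 20 were higher (64.5%) and 5 lower (16.1%), where over all genes 22.9% were higher and 23.2% lower. From 6 to 48 hours of PGG, 17 were higher (54.8%) and 5 lower (16.1%), beside 22.4% and 22.0% of all genes. The median difference of the members from PBS was -0.03 at 6 hours and 0.46 at 48 hours, where it was 0.01 and -0.02 over all genes. In size without sign, the medians were 0.36 and 0.62 for the members, against 0.14 and 0.20 for all genes. The 3 PGG arrays did not overlap the 3 PBS arrays for 25 of 31 members at 6 hours (45.1% of all genes) and for 24 of 31 at 48 hours (51.8% of all genes). Every member was read from a probe set with a PBS mean of 7.44 or more, above the array medians of 5.16 to 5.20. All genes include dim ones, and members were not compared with genes of like level. Without PGG 48 h replicate 2, 20 member genes were higher and 4 lower at 48 hours, and without PBS replicate 1, 20 were higher and 4 lower.

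Counted by probe set, 27 of 83 were higher and 17 lower at 6 hours, beside 12.2% and 12.5% of all probe sets. At 48 hours 42 were higher and 11 lower (18.8% and 20.2% of all), and between the PGG times 35 were higher and 11 lower at 48 hours (18.0% and 18.4% of all). Without PGG 6 h replicate 2, and likewise without replicate 3, the number lower at 6 hours was 11. The study's methods require a q-value below 0.005 with a mean difference over 1.5, read here as a log2 difference, whereas a figure legend of the study words 1.5 as a fold. The study's supplementary list is in log2 units. Its mean differences for the SEC24D probe set read here round to 1.61 and 1.77, the log2 differences found here. Read as a fold, the cut-off would be lower and the counts at it would differ from those that follow. At those cut-offs 2 member probe sets were higher and 1 lower at 6 hours, beside 0.298% and 0.436% of all. At 48 hours 11 were higher and 1 lower (2.26% and 1.86% of all), and between the PGG times 9 were higher and 0 lower (1.75% and 1.28% of all). The 0 is of calls at both cut-offs by limma and by the methods' t-test, and 11 probe sets were lower at the adjusted p alone.

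Read over both times, 11 members were above PBS at 6 and at 48 hours: DNAJB9, SDF2L1, CALR, CRELD2, HERPUD1, EDEM1, DERL1, DERL2, EIF2AK3, SEC61B and SEC24D. SEL1L, ATF6 and ERN1 were below PBS at 6 hours and above it at 48 hours. HSP90B1, HYOU1, XBP1 and RCN1 were below PBS at both times. HSPA5, DNAJB11, DNAJC3, P4HB, MANF and CALU were called only at 48 hours, as higher, and RCN2 only at 48 hours, as lower. SSR1 was called only at 6 hours, as higher, and CANX only at 6 hours, as lower. PDIA3, PDIA4, PDIA6 and SDF4 were called against PBS at neither time. A call at 1 time and none at the other is no test between the times. By limma, PGG 48 h minus PGG 6 h was 0.59 for HSPA5 (adjusted p = 1.2e-05) and 0.52 for DNAJB11 (6.7e-05). This difference was 1.62 for DNAJC3 (6.0e-08), 0.52 for P4HB (3.6e-04), 0.44 for MANF (3.0e-04) and 0.37 for CALU (0.0075). For RCN2 it was -1.01 (3.5e-06), for SSR1 -0.36 (0.0014) and for CANX 0.28 (0.0058).

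**Figure D1:**
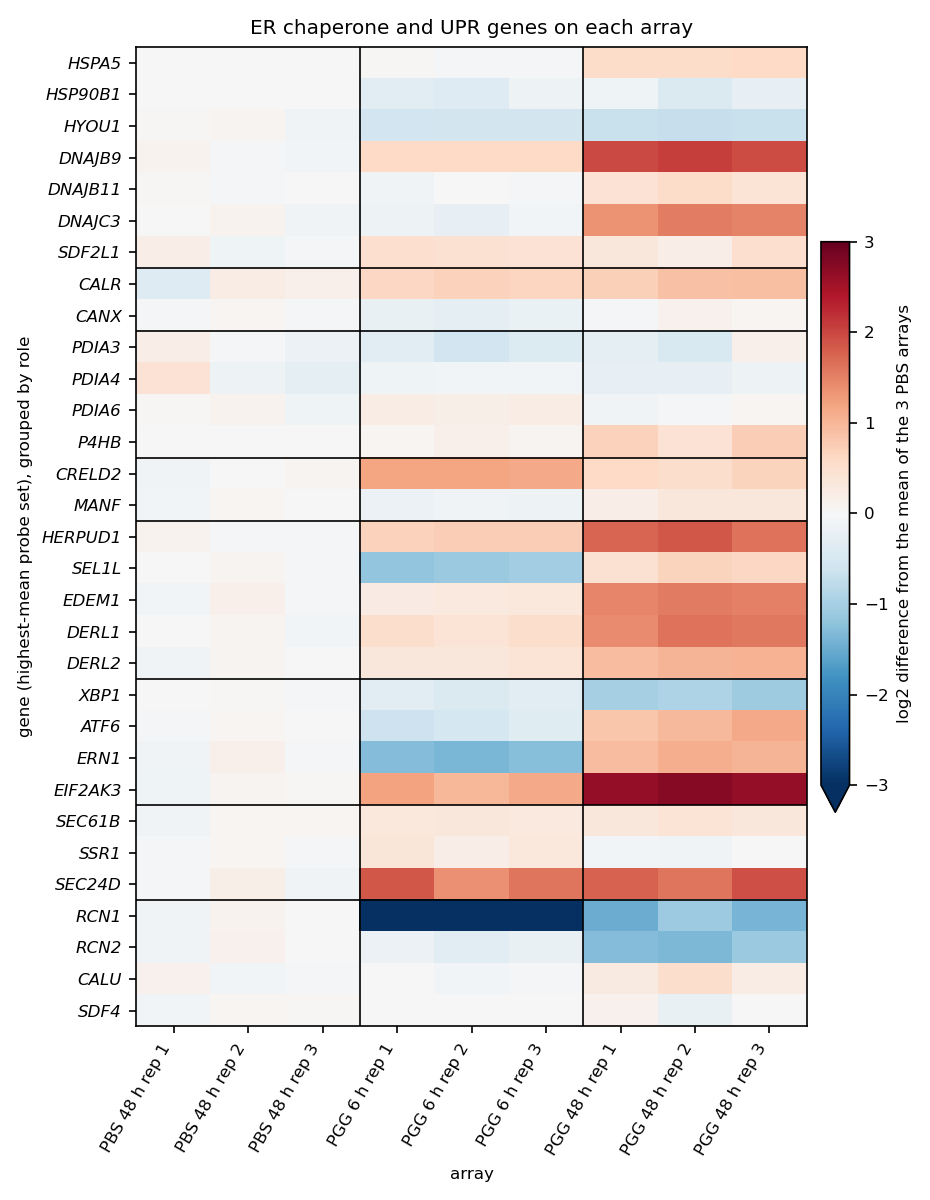
Log2 difference of each of the 31 measured member genes (vertical axis, grouped by role) from the mean of the 3 PBS arrays, on each of the 9 arrays (horizontal axis), with red above and blue below PBS and the colour scale ending at -3 and 3. RCN1 lies farthest below PBS at 6 hours (mean difference -3.73) and EIF2AK3 farthest above at 48 hours (2.67).

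**Figure D2:**
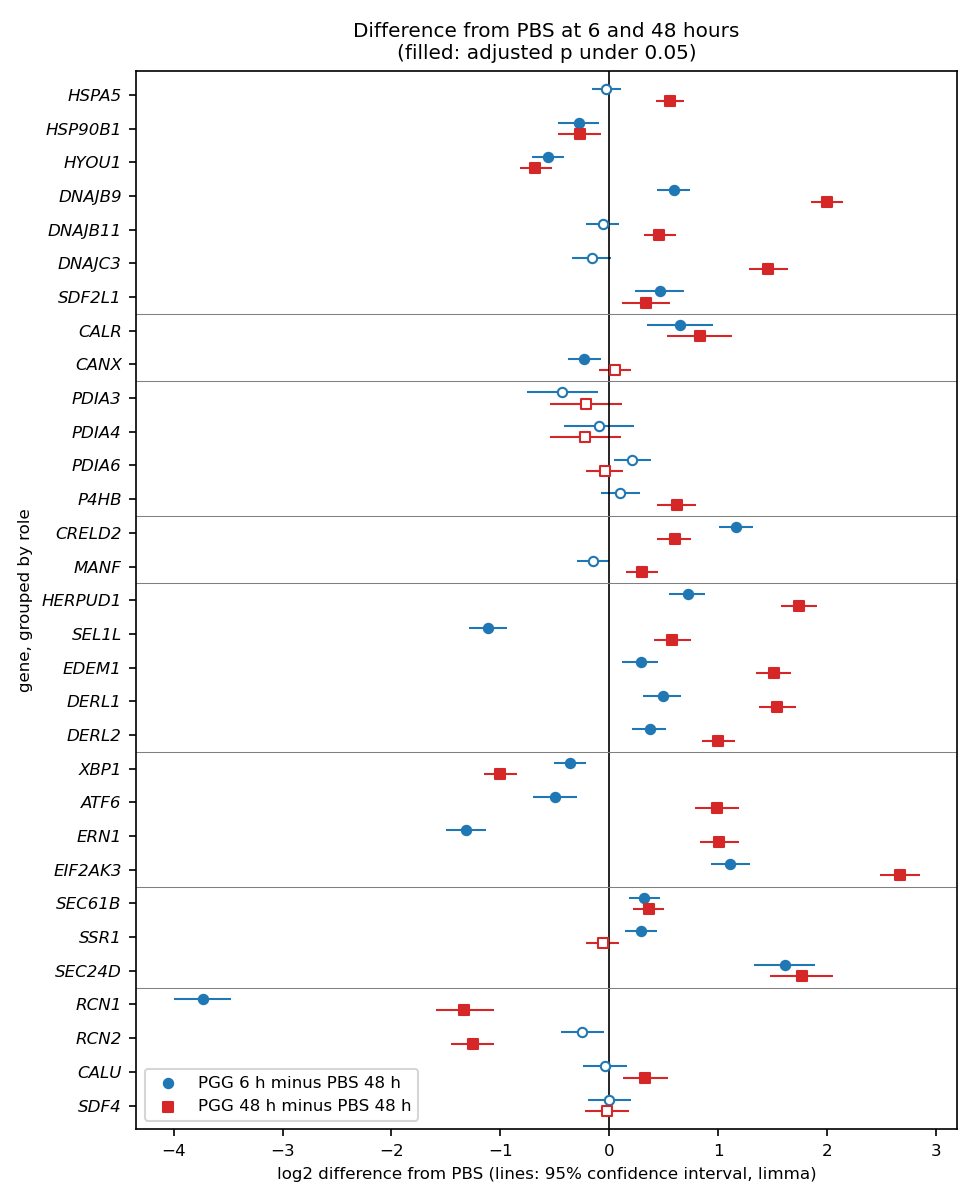
Log2 difference from PBS (horizontal axis) of the 31 member genes after 6 and 48 hours of PGG, with 95% confidence intervals from limma and filled points for an adjusted p under 0.05. The members spread from -3.73 to 1.61 at 6 hours and from -1.33 to 2.67 at 48 hours.

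The sensors moved apart from each other at 6 hours. EIF2AK3 encodes PERK, the kinase that phosphorylates eIF2α. It was at 8.85, 9.06 and 9.01 on the PBS arrays, at 10.18, 9.96 and 10.12 in PGG 6 h, and at 11.61, 11.71 and 11.61 in PGG 48 h. The 3 groups did not overlap, and the 48 h arrays were the highest. The rise was 1.11 at 6 hours (95% CI 0.93 to 1.29, adjusted p = 3.2e-06 from limma) and 2.67, or 6.36-fold, at 48 hours (2.49 to 2.85, adjusted p = 1.9e-09), the largest difference from PBS of any member at that time.

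ERN1, which encodes the kinase and endoribonuclease IRE1, was at 8.28, 8.56 and 8.35 in PBS, at 7.10, 7.03 and 7.11 in PGG 6 h, and at 9.32, 9.48 and 9.42 in PGG 48 h. All 6 h arrays lay below and all 48 h arrays above the PBS arrays. ERN1 fell by 1.32 at 6 hours (adjusted p = 1.1e-06 from limma) and rose by 1.01 against PBS at 48 hours (1.8e-06), and the difference between the PGG times was 2.33, or 5.02-fold (6.3e-09). ATF6, the membrane-bound transcription factor, was at 8.46, 8.59 and 8.51 in PBS, 7.91 to 8.15 in PGG 6 h, and 9.36, 9.50 and 9.66 in PGG 48 h. The order of the 3 groups was that of ERN1, again with no overlap. ATF6 fell by 0.50 at 6 hours (adjusted p = 0.0019 from limma) and stood 0.99 above PBS at 48 hours (5.0e-06), with 1.49 between the PGG times (2.4e-07).

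XBP1, the transcription factor whose mRNA IRE1 splices, took the other course. Its mRNA was at 10.49, 10.52 and 10.43 in PBS, 10.17, 10.04 and 10.15 in PGG 6 h, and 9.48, 9.55 and 9.41 in PGG 48 h, so that each group lay below the one before with no overlap. XBP1 fell by 0.36 at 6 hours (adjusted p = 0.0022 from limma) and fell by 1.00, to a level 2.00-fold below PBS, at 48 hours (3.9e-07). Of the 4 genes of this role, PGG 6 h had 1 higher and 3 lower than PBS, and PGG 48 h had 3 higher and 1 lower. EIF2AK3, ERN1 and XBP1 were also measured by dimmer probe sets, 1, 2 and 1 of them, with PBS means of 3.47, of 5.08 and 5.90, and of 4.50, and none of these was called against PBS. For ATF6, 2 of 4 probe sets were lower at 6 hours and 3 of 4 higher at 48 hours.

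**Figure D3:**
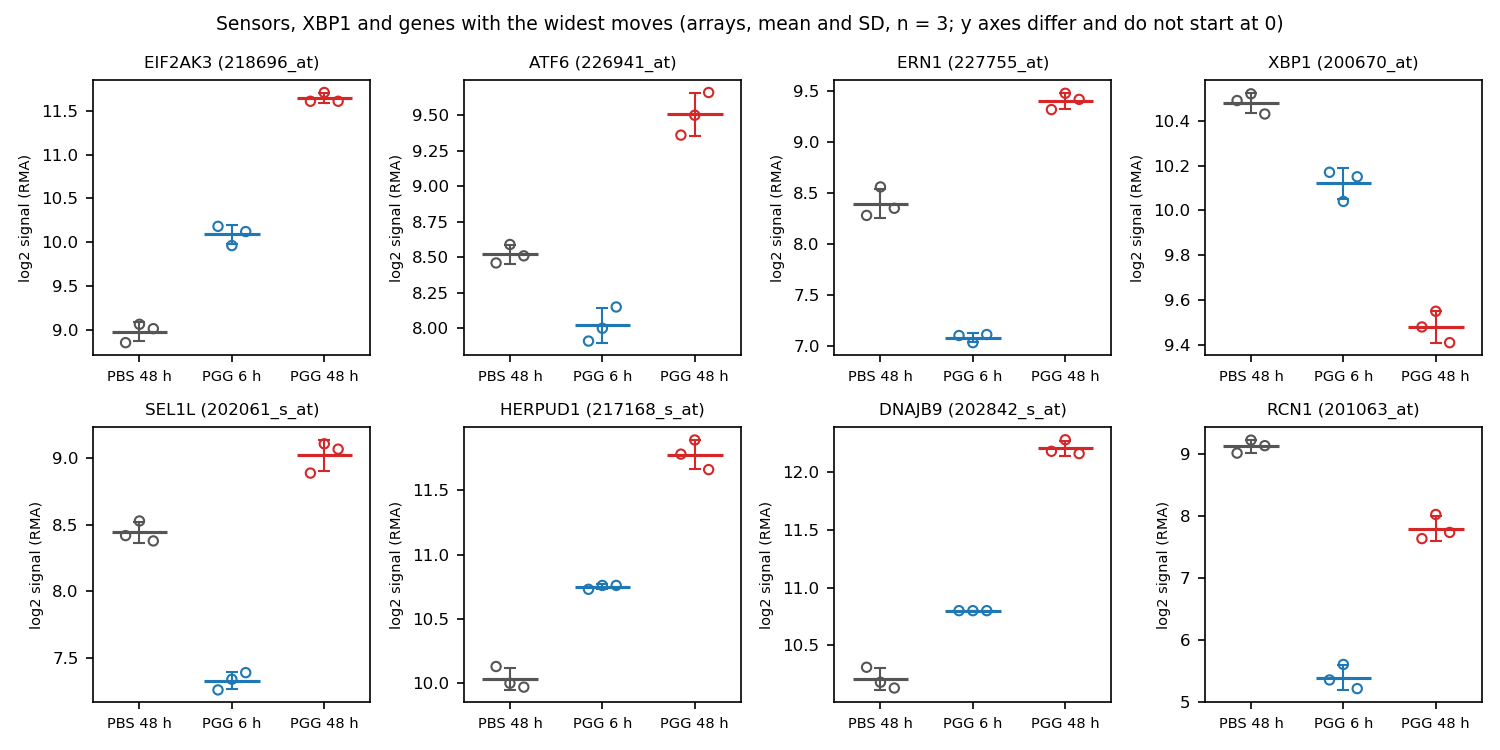
Log2 level (vertical axis) of EIF2AK3, ATF6, ERN1, XBP1, SEL1L, HERPUD1, DNAJB9 and RCN1 on each array of PBS, PGG 6 h and PGG 48 h, with points for arrays, a bar for the mean of 3 and an error bar for the SD. ERN1, ATF6 and SEL1L dip at 6 hours and pass PBS at 48 hours, EIF2AK3, HERPUD1 and DNAJB9 climb at both times, XBP1 declines at both, and RCN1 drops at 6 hours and is part of the way back at 48 hours.

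Most genes of ERAD were above PBS. Of 5 measured, PGG 6 h had 4 higher and 1 lower than PBS, and PGG 48 h had 5 higher. HERPUD1, an ER membrane protein that helps assemble the degradation complex, was at 9.97 to 10.13 in PBS, 10.73, 10.76 and 10.76 in PGG 6 h, and 11.78, 11.89 and 11.66 in PGG 48 h. The groups were apart at each step. HERPUD1 rose by 0.72 (adjusted p = 4.0e-05 from limma) and by 1.74 (1.5e-08), and a dimmer probe set differed by 0.25 (0.074) and rose by 0.48 (0.0015). It is the member that holds both an ERSE-II and an ATF4-type element in the window printed above.

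SEL1L, the partner of SYVN1 in the ubiquitin ligase complex, was at 8.42, 8.53 and 8.38 in PBS, at 7.26, 7.34 and 7.39 in PGG 6 h, and at 8.89, 9.11 and 9.07 in PGG 48 h. Its 6 h arrays were the lowest and its 48 h arrays the highest, with no overlap. It fell by 1.11 (adjusted p = 2.4e-06 from limma), then lay 0.58 above PBS at 48 hours (9.9e-05), a difference between the PGG times of 1.69 (3.3e-08). All 4 SEL1L probe sets were lower at 6 hours, whereas the 3 dimmer ones differed from PBS by 0.00 to 0.07 at 48 hours and were not called. The mean of its 4 probe sets differed from PBS by 0.17 at 48 hours, not called.

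EDEM1, which hands misfolded glycoproteins to degradation, was at 9.04 to 9.27 in PBS, 9.37 to 9.44 in PGG 6 h and 10.59 to 10.69 in PGG 48 h. It rose by 0.29 (adjusted p = 0.015 from limma) and by 1.51 (3.8e-08), and the call at 6 hours was lost without PBS replicate 1 or 3 or PGG 6 h replicate 2 or 3 (0.24 to 0.28). DERL1 and DERL2 encode derlins, membrane proteins of the retrotranslocation step. DERL1 was at 9.06, 9.14 and 8.99 in PBS, 9.60, 9.47 and 9.58 in PGG 6 h, and 10.47, 10.69 and 10.65 in PGG 48 h. Its groups did not overlap, it rose by 0.49 (8.1e-04) and by 1.54 (4.7e-08), and 4 of 4 probe sets were higher at 48 hours, of which the dimmest was not called at 6 hours (0.01). DERL2 rose by 0.37 (0.0023) and by 1.00 (4.8e-07) on its brightest probe set. A second DERL2 probe set, at 7.97 to 8.06 in PBS and 7.50 to 7.59 in PGG 48 h, was lower at 48 hours by -0.45 (1.2e-04).

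The chaperones of the HSP70 and HSP90 families and their DNAJ co-chaperones did not move as 1 group. HSPA5 (BiP, the ER HSP70) was at 12.38, 12.40 and 12.36 in PBS, at 12.42, 12.31 and 12.33 in PGG 6 h, and at 12.93, 12.92 and 12.97 in PGG 48 h. PBS and PGG 6 h overlapped, and PGG 48 h lay above both. The difference at 6 hours was -0.03 (95% CI -0.16 to 0.11, adjusted p = 0.82 from limma), and at 48 hours HSPA5 rose by 0.56, or 1.47-fold (1.6e-05). A second HSPA5 probe set went the other way, from 8.50, 8.40 and 8.48 in PBS to 8.06, 8.11 and 8.13 in PGG 6 h and 7.13, 7.55 and 7.13 in PGG 48 h. It was lower by -0.36 (0.028) and -1.19 (3.4e-06), so the direction for HSPA5 holds for the brighter probe set alone. The mean of both probe sets was lower than PBS at 48 hours (-0.31, 9.8e-04).

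HYOU1, an HSP70-type chaperone and nucleotide exchange factor of HSPA5, was at 10.29, 10.32 and 10.13 in PBS, 9.67, 9.69 and 9.69 in PGG 6 h, and 9.59, 9.55 and 9.57 in PGG 48 h. Both PGG groups lay below PBS, and HYOU1 fell by 0.56 (adjusted p = 9.3e-05 from limma) and fell by 0.68 (8.1e-06). HSP90B1 (GRP94, the ER HSP90) was at 10.75 to 10.76 in PBS, 10.37 to 10.61 in PGG 6 h and 10.33 to 10.62 in PGG 48 h. Its differences of -0.28 (0.038) and -0.27 (0.028) were small. The call at 6 hours was lost without any 1 of the PBS arrays, PGG 6 h replicate 1 or 2 or PGG 48 h replicate 3 (-0.28 to -0.23), and the call at 48 hours without any 1 of the PBS arrays or PGG 48 h replicate 2 or 3 (-0.28 to -0.20). Both of its probe sets used are of the type that may cross-hybridise, and 2 others shared with another gene were not used. Of the 83 member probe sets 10 are of that type, among them those read for CALR and SDF4.

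DNAJB9 (ERdj4), a co-chaperone that also serves ERAD, was at 10.31, 10.18 and 10.13 in PBS, at 10.80 on each PGG 6 h array, and at 12.18, 12.28 and 12.16 in PGG 48 h. The groups were separate at each step. It rose by 0.59 (adjusted p = 7.7e-05 from limma) and by 2.00, or 4.00-fold (3.3e-09), and its 2 other probe sets gave 0.72 and 0.43 at 6 hours and 2.22 and 2.19 at 48 hours. DNAJC3 (P58IPK), a co-chaperone and an inhibitor of PERK, was at 8.95, 9.06 and 8.84 in PBS, 8.79, 8.71 and 8.86 in PGG 6 h, and 10.29, 10.49 and 10.44 in PGG 48 h. PBS and PGG 6 h overlapped and PGG 48 h was higher on every array, with -0.16 at 6 hours (0.20) and a rise of 1.46, or 2.74-fold, at 48 hours (9.5e-08). DNAJB11 (ERdj3) was at 10.26 to 10.34 in PBS, 10.18 to 10.27 in PGG 6 h and 10.70 to 10.85 in PGG 48 h, a difference of -0.06 (0.60) and a rise of 0.46 (1.6e-04). SDF2L1, which works with ERdj3, rose by 0.47 in PGG 6 h (0.0053) and by 0.34 in PGG 48 h (0.019), where its arrays, at 7.84, 7.70 and 8.01, overlapped the PBS arrays at 7.71, 7.38 and 7.44. The call at 48 hours was lost without PBS replicate 2 or 3 or PGG 48 h replicate 3 (0.26 to 0.31), and with PBS and PGG 48 h fitted alone. Of the 3 other DNAJC3 probe sets, each was higher at 48 hours (0.78 to 1.45). On each of them replicate 2 was the lowest PGG 48 h array, on 1 at 8.25 beside 9.54 and 9.20. On the probe set with a rise of 0.78 (0.034), replicate 2 at 7.04 overlapped the PBS arrays, at 6.63 to 7.05.

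The lectin chaperones, which hold glycoproteins while they fold, differed in direction at 6 hours. CALR (calreticulin) was at 9.70, 10.32 and 10.25 in PBS, 10.71, 10.77 and 10.74 in PGG 6 h, and 10.81, 10.96 and 10.99 in PGG 48 h. All PGG arrays lay above all PBS arrays, of which replicate 1 was the lowest. CALR rose by 0.65 (adjusted p = 0.0048 from limma) and by 0.83 (4.9e-04), and each of its 3 probe sets was higher at both times. The probe set read and the next brightest are of the type that may cross-hybridise. On the dimmest, with a PBS mean of 5.79, PGG 48 h overlapped PBS. CANX (calnexin) was at 12.18, 12.28 and 12.18 in PBS, 11.99, 11.95 and 12.01 in PGG 6 h, and 12.18, 12.35 and 12.27 in PGG 48 h. It fell by 0.23 at 6 hours (0.027), with 3 of 5 probe sets lower, a call lost without PBS replicate 2 or any 1 of the PGG 6 h arrays (-0.24 to -0.20), and differed from PBS by 0.05 at 48 hours (95% CI -0.09 to 0.20, 0.59).

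Of the protein disulfide isomerases, which form and rearrange disulfide bonds, 1 of 4 was called against PBS. P4HB (PDI) was at 11.81, 11.83 and 11.79 in PBS, 11.87, 11.97 and 11.90 in PGG 6 h, and 12.49, 12.25 and 12.55 in PGG 48 h. All PGG 48 h arrays were above the rest, with 0.10 at 6 hours (adjusted p = 0.44 from limma) and a rise of 0.62 at 48 hours (8.1e-05). On a second P4HB probe set, PGG 48 h replicate 2 was at 6.64 beside 10.13 and 9.68 on replicates 1 and 3, and on a further one at 9.78 beside 11.39 and 11.26. Neither of these was called (-0.29 and 0.35 at 48 hours). Without PGG 48 h replicate 2 they were 0.79 (8.5e-04) and 0.87 (4.9e-06), and the brightest was 0.71 (1.1e-05).

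PDIA3 (ERp57), the isomerase that works with the lectins, was at 11.04, 10.80 and 10.66 in PBS, 10.50, 10.27 and 10.43 in PGG 6 h, and 10.53, 10.37 and 10.98 in PGG 48 h. Its differences were -0.43 at 6 hours (95% CI -0.76 to -0.10, adjusted p = 0.058 from limma) and -0.21 at 48 hours (-0.54 to 0.12, 0.33), and 1 of 2 dimmer probe sets was lower at 48 hours (-0.36, 0.0070). PDIA4 (ERp72) differed by -0.09 (-0.42 to 0.23) and -0.22 (-0.54 to 0.11), with PBS replicate 1 at 9.95 and replicates 2 and 3 at 9.36 and 9.24. PDIA6 (P5) differed by 0.21 (0.04 to 0.38, adjusted p = 0.077) and -0.04 (-0.21 to 0.13, 0.76), and of its 3 other probe sets 2 were higher at 6 hours (0.23 and 0.19) and 1 at 48 hours (0.19). It was lower in PGG 48 h than in PGG 6 h (-0.25, 0.028), a call lost without any 1 of the PGG 6 h arrays or PGG 48 h replicate 1 or 2 (-0.26 to -0.21). PDIA3 at 6 hours passed the threshold without PGG 48 h replicate 2 or 3 (-0.43), and at 48 hours without replicate 3 (-0.38).

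Both secreted members were above PBS at 48 hours. CRELD2, an ER stress-induced protein with disulfide isomerase activity, was at 8.42, 8.53 and 8.61 in PBS, 9.70, 9.70 and 9.65 in PGG 6 h, and 9.11, 9.05 and 9.19 in PGG 48 h. The groups did not overlap and the 6 h arrays were the highest. CRELD2 rose by 1.16, or 2.24-fold, at 6 hours (adjusted p = 8.5e-07 from limma) and by 0.60 at 48 hours (3.4e-05), and PGG 48 h was lower than PGG 6 h (-0.57, 5.6e-05). MANF, a neurotrophic factor kept in the ER by HSPA5, was at 10.22, 10.37 and 10.31 in PBS, 10.12, 10.19 and 10.15 in PGG 6 h, and 10.51, 10.65 and 10.63 in PGG 48 h. It differed by -0.15 in PGG 6 h (0.16), and a rise of 0.30 was called in PGG 48 h (0.0045).

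The members of translocation and export were all higher at 6 hours. SEC24D, a cargo-binding subunit of the COPII coat of ER-to-Golgi vesicles, was at 7.38, 7.61 and 7.34 in PBS, 9.30, 8.82 and 9.04 in PGG 6 h, and 9.21, 9.05 and 9.37 in PGG 48 h. Every PGG array lay above every PBS array, and the PGG times overlapped. SEC24D rose by 1.61, or 3.05-fold, at 6 hours (adjusted p = 5.7e-06 from limma), the largest rise of a member at that time, and by 1.77 at 48 hours (6.9e-07), and its other probe sets were higher at both times too, from PBS means of 5.11 and 4.18 that lie below the array medians (1.84 and 1.45, then 2.41 and 1.44). SEC61B, a subunit of the translocon channel, was at 11.67, 11.82 and 11.82 in PBS, 12.09, 12.12 and 12.07 in PGG 6 h, and 12.10, 12.17 and 12.12 in PGG 48 h, and it rose by 0.32 (0.0034) and by 0.36 (8.9e-04). A dimmer SEC61B probe set differed by -0.06 at 6 hours, not called, and was higher by 0.45 at 48 hours (0.025).

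SSR1, a subunit of the translocon-associated protein complex, was at 10.91, 11.01 and 10.91 in PBS, 11.30, 11.15 and 11.26 in PGG 6 h, and 10.86, 10.84 and 10.94 in PGG 48 h. It rose by 0.29 at 6 hours (adjusted p = 0.0079 from limma) and lay -0.06 from PBS at 48 hours (95% CI -0.21 to 0.09, 0.52). Its 6 probe sets split: 5 were higher at 6 hours, and at 48 hours 4 were higher by 0.35 to 0.89, 1 was lower (-0.23, 0.015), and the brightest was not called. The mean of the 6 was higher than PBS at 48 hours (0.31, 5.6e-04).

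RCN1 (reticulocalbin 1), of the CREC family of calcium-binding EF-hand proteins of the secretory pathway, showed the largest difference of any member. It was at 9.02, 9.23 and 9.14 in PBS, at 5.36, 5.61 and 5.22 in PGG 6 h, and at 7.64, 8.03 and 7.74 in PGG 48 h. The 6 h arrays lay just above the array medians of 5.16 to 5.20, and the 48 h arrays lay between the other groups. RCN1 fell by 3.73, a level 13.3-fold lower, at 6 hours (95% CI -4.00 to -3.47, adjusted p = 2.9e-08 from limma), and remained below PBS at 48 hours (-1.33, 4.5e-06), 2.41 above PGG 6 h (5.9e-08). RCN1 is measured by 1 probe set. No detection calls were used here, and if the 6 h level is background the 13.3-fold is a lower bound.

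RCN2 (reticulocalbin 2) was at 10.23, 10.46 and 10.31 in PBS, 10.15, 9.99 and 10.12 in PGG 6 h, and 9.04, 8.98 and 9.22 in PGG 48 h. The groups did not overlap. The difference at 6 hours was -0.25 (adjusted p = 0.066 from limma), which passed the threshold without PBS replicate 1 (-0.30), and RCN2 fell by 1.25 at 48 hours (5.2e-07). Its other probe set was lower at both times (-0.39, 6.9e-04, and -1.54). CALU (calumenin) differed by -0.04 in PGG 6 h (0.83), and its rise in PGG 48 h was 0.33 (0.013), lost without PBS replicate 2 or 3 (0.30), and of its 4 other probe sets 1 was higher at both times (0.68 and 0.64) and 3 at neither. SDF4 (Cab45, of the Golgi lumen) differed by 0.00 (95% CI -0.20 to 0.20) and -0.02 (-0.22 to 0.18), and none of its 4 probe sets was called.

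Across the probe sets of a gene, HSPA5, DERL2 and SSR1 were the members with calls in both directions at 48 hours, and no member had them at 6 hours. Between the PGG times, calls went both ways for HSPA5 (0.59 and -0.83), DERL2 (0.63 and -0.51) and XBP1 (-0.64 and 0.24). The 0.24 of XBP1 was on its dimmer probe set (adjusted p = 0.046 from limma). Of the 31 genes, 24 were measured by several probe sets and 7 by 1. Whether such probe sets read different transcript ends or forms was not tested.

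**Figure D4:**
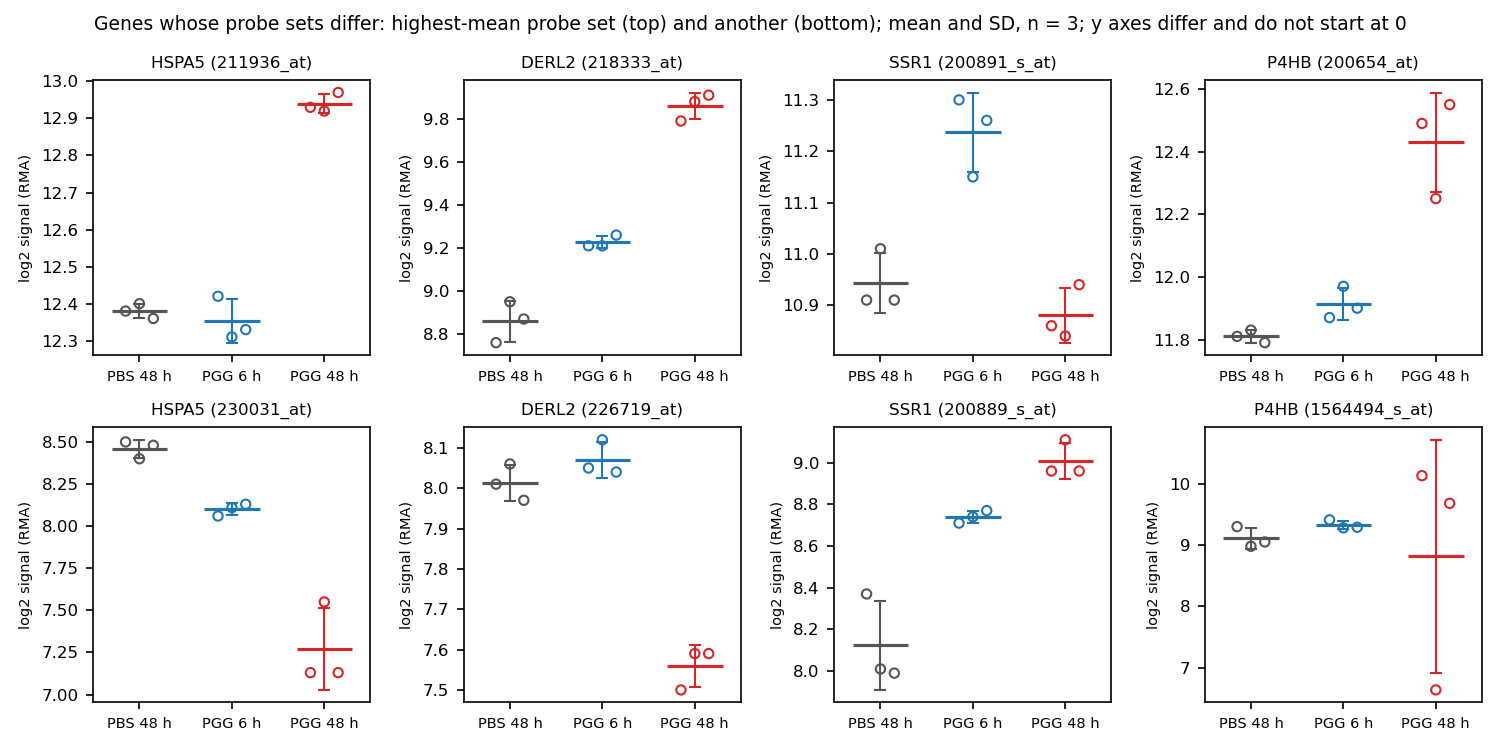
Log2 level (vertical axis) on each array of PBS, PGG 6 h and PGG 48 h of the highest-mean probe set (top) and another probe set (bottom) of HSPA5, DERL2, SSR1 and P4HB, with a bar for the mean of 3. At 48 hours the other HSPA5 probe set differs from PBS by -1.19 where the brightest differs by 0.56, and the other P4HB probe set has PGG 48 h replicate 2 at 6.64.

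Set against the promoter letters, members with an ERSE or ERSE-II match moved both ways. Of the 10 measured genes with a match, PGG 6 h had 4 higher and 4 lower than PBS, and PGG 48 h had 5 and 3, with a median difference of 0.20 at 48 hours and the extremes XBP1, which fell by 1.00, and HERPUD1, with 1.74. Of the 18 with a window and no match, PGG 6 h had 6 higher and 4 lower, and PGG 48 h had 13 and 2, with a median of 0.52 (-1.33 to 2.67). HERPUD1, CALR, CRELD2, SDF2L1 and HSPA5 were the genes with a match that were higher at 48 hours, and HYOU1, HSP90B1 and XBP1 those that were lower. These are counts over few genes, given as a description with no test.

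Other genes of the system were read from 7 lists that hold 145 genes, 137 of them measured. COPII and cargo receptor genes were the list with the largest share higher: of 23 measured, PGG 6 h had 15 higher and 1 lower than PBS (median 0.44), and PGG 48 h had 18 and 1 (median 0.55), beside the 15.5% and 15.5%, then 22.9% and 23.2%, of all genes. MIA3 (TANGO1), which loads bulky cargo such as procollagen, rose by 1.04 and 2.09 (adjusted p = 6.1e-06 and 8.7e-09 from limma), and KDELR3, which retrieves escaped ER proteins, rose by 0.80 and 1.88 (6.5e-06 and 3.5e-09). MIA2 was lower at 6 hours (-0.51), at a mean of 4.99 that lies below the array medians, and PREB, the exchange factor that starts coat assembly, was lower at 48 hours (-0.25).

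The list of the PERK and ATF4 branch held ATF4, its targets and partners, eIF2α and the other eIF2α kinases. Of its 15 measured genes, PGG 6 h had 2 higher and 8 lower than PBS (median -0.22), and PGG 48 h had 7 and 5 (median -0.07). DDIT3 (CHOP), the transcription factor linked to death under ER stress, fell by 0.47 at 6 hours (adjusted p = 2.8e-04 from limma) and rose by 2.15 at 48 hours (1.7e-09). TRIB3, a pseudokinase, fell by 1.68 at 6 hours (4.7e-08) and differed by -0.15 at 48 hours, not called, and CEBPB, a bZIP transcription factor, fell at both times (-1.13 and -0.22). NUPR1, a stress-induced chromatin protein, rose by 1.72 at 48 hours from a PBS mean of 4.65, below the array medians. CHAC1, which degrades glutathione, fell by 0.64 and fell by 1.00, and EIF2AK2, the kinase PKR, at 48 hours (-0.81). EIF2AK1, the heme-regulated eIF2α kinase, was higher at both (0.73 and 1.28), and EIF2S1, eIF2α itself, at 6 hours (0.36). Of 18 other sensors, proteases and factors, PGG 6 h had 5 higher and 5 lower than PBS (median 0.01), and PGG 48 h had 9 and 2 (median 0.36). WFS1, an ER membrane regulator of the response, was higher at 6 hours (0.97), and CREB3 and CREB3L2, transcription factors held in membranes, at both times (0.54 and 1.53, 0.80 and 0.72). SERP1, which guards newly made membrane proteins, was higher at both (0.26 and 0.93), BHLHA15, a transcription factor of secretory cells, was lower at 48 hours (-0.29), and STC2 was lower at 6 hours (-1.72) and MBTPS2, the site-2 protease that cleaves ATF6, at both times (-0.63 and -1.37).

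Among 21 measured other ERAD genes, PGG 6 h had 5 higher and 3 lower than PBS (median 0.04), and PGG 48 h had 10 and 6 (median 0.20). SELENOS, a selenoprotein of the retrotranslocation complex, rose by 0.77 and 1.61 (adjusted p = 8.6e-06 and 9.0e-09 from limma), and UBE2J1, an ER ubiquitin-conjugating enzyme, by 0.40 and 1.38. VCP, the ATPase that pulls proteins from the membrane, was higher at 6 hours (0.85) and lower at 48 hours (-0.35), and STUB1, a cytosolic chaperone-linked ligase, was lower at 48 hours (-1.21), as was NPLOC4, a cofactor of VCP (-0.67). HERPUD2, a relative of HERPUD1, and NGLY1, which strips glycans from retrotranslocated proteins, were lower at 6 hours (-0.59 and -0.39) and higher at 48 hours (0.32 and 0.36). Among 24 other genes of folding and glycan processing, PGG 6 h had 5 higher and 9 lower than PBS (median -0.14), and PGG 48 h had 9 and 9 (median 0.01). ERO1A, the oxidase that recharges PDI, rose by 0.65 and 2.18 (5.2e-05 and 2.4e-09), whereas DNAJC10, a reductase of ERAD, fell at both times (-0.86 and -1.10) and UGGT1, the folding sensor of the calnexin cycle, was lower by -0.27 and -1.23. FKBP14, a prolyl isomerase, was higher at both times (0.71 and 1.29), TMX3, a membrane oxidoreductase, lower at both (-0.56 and -0.92), and ERO1B, a second PDI oxidase, lower at 6 hours (-0.43) and higher at 48 hours (1.36), with means of 4.90 in PBS and 4.47 in PGG 6 h that both lie below the array medians.

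Of 29 translocon and signal peptidase genes, PGG 6 h had 8 higher and 5 lower than PBS (median 0.03), and PGG 48 h had 11 and 8 (median 0.04). SSR2, a partner of SSR1, rose by 0.65 and 1.05, SEC62 by 0.21 and 1.11, and STT3B, a catalytic subunit of oligosaccharyltransferase, was lower by -0.21 and -1.38. SRP54, of the signal recognition particle, was lower at 6 hours (-0.60) and higher at 48 hours (0.88), SEC63, a partner of SEC62, was lower at 6 hours (-0.55), TRAM2 was higher at 6 hours (0.43), and SEC11C, of the signal peptidase, was lower at 48 hours (-0.65). Without PGG 6 h replicate 2, 7 of these genes were called at 6 hours in place of 13, and without replicate 3 it was 8. Of 8 other EF-hand genes of the secretory pathway, PGG 6 h had 1 higher and 1 lower than PBS (median -0.01), and PGG 48 h had 3 and 1 (median -0.01). NUCB2 (nucleobindin 2) rose by 0.34 and 1.89, and STIM2, a sensor of ER calcium, was lower at 6 hours (-0.38) and higher at 48 hours (0.19). MCFD2, a cargo receptor subunit that the COPII list also holds, was higher at 48 hours (0.42) and NUCB1 lower (-0.25). Without PBS replicate 3, or without PGG 6 h replicate 1 or 3, 1 of these was called at 6 hours, and without PBS replicate 2 or 3, any PGG 6 h array or PGG 48 h replicate 2, 2 were called at 48 hours in place of 4.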

How the data were processed

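Huh7 total RNA was hybridised to 9 Affymetrix arrays, 3 for each group. Groups and times were taken from the sample titles. RMA log2 values, 1 for each probe set, were deposited by the authors, who ran Affymetrix Expression Console (version not given in the sources used here). RMA subtracts background and equalizes array distributions, so the median of every array was 5.16 to 5.20 and a change shared by all genes would not be seen. Of 54675 probe sets, 62 controls were left out and 54613 tested. The platform annotation paired 41091 with 1 symbol, 1801 with several and 11721 with none, and all 83 member probe sets matched the RefSeq gene table by Entrez identifier, with 0 symbols changed.

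Differences were computed with limma 3.58.1 in R 4.3.3 (lmFit with 1 mean per group over the 9 arrays, eBayes, Benjamini-Hochberg over the 54613 probe sets), and called at an adjusted p under 0.05. Of the probe sets of a gene, the one with the highest mean of all arrays was read. For the 19775 genes the p-values of those probe sets were kept as adjusted. The script was tested on simulated data. The members and lists were chosen with earlier results of these data known, so the counts are descriptions beside those of all genes. Every member is named, another probe set of a member where its call or direction differs, and of other lists up to 2 rises and 2 falls per comparison with PBS, taken among the largest that were called and did not overlap PBS. Promoter windows of 300 bases came from RefSeq (GRCh38.p14) and were searched with Python 3.11.15. The alternatives were a replicate block, trend and robust fits, array weights, centring, quantile normalization, a filter on dim probe sets, the mean over probe sets, 1 probe set per gene before adjustment, the 2 groups alone, the methods' t-test and cut-offs, and each array left out. That they were also run for the lists was chosen after seeing the data. Scanner files, pathway clustering and the study's other assays were not used here.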

Additional observations from a re-analysis of the deposited data

Results flagged for a closer look

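SEL1L, ATF6 and ERN1 were lower than PBS after 6 hours of PGG and higher than PBS after 48 hours, so that their effects at the 2 times had opposite signs. The difference itself was tested by limma between the PGG groups. PGG 48 h exceeded PGG 6 h by 1.69 on the log2 scale for SEL1L (adjusted p = 3.3e-08), by 1.49 for ATF6 (2.4e-07) and by 2.33 for ERN1 (6.3e-09), with every PGG 48 h array above every PGG 6 h array. The rise over PBS at 48 hours was not found on the 3 dimmer probe sets of SEL1L or the 2 dimmer ones of ERN1, and the mean of the 4 SEL1L probe sets was not called at 48 hours (0.17). The 2 dimmer ERN1 probe sets were also not called at 6 hours (-0.01 and 0.19) or between the PGG times (-0.05 and -0.15). At 6 hours all 4 SEL1L probe sets were called lower, and 2 of the 4 of ATF6. PBS at 6 hours was not analysed here, and the cause was not tested.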

How the results depend on the processing

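Of 93 differences of member genes (31 genes in 3 comparisons), 93 kept direction and call after median centring, 92 with a replicate block (1 lost its call, PDIA6 between the PGG times), 91 with trend and robust fits, 91 with the 2 groups alone, 90 after quantile normalization, 90 each without dim probe sets and with 1 probe set per gene, 89 with array weights and 83 by the methods' t-test. With the mean of all probe sets of a gene it was 70, with 9 calls lost, 6 gained and 8 signs turned, and the member genes higher and lower were then 17 and 7 at 48 hours. These 4 single-gene recalculations (dim filter, 1 probe set per gene, mean, t-test) were chosen after seeing the data. Same-numbered arrays of different groups correlated at -0.09 to 0.16 in their deviations, with 2 of 9 pairs over 0.1. In 10 of 18 rankings an array correlated best with its own number. Whether same-numbered arrays were paired cannot be told from these values. Under the replicate block 12 member genes were higher and 8 lower at 6 hours, and 20 and 5 at 48 hours. Leaving out 1 array kept 795 of 837 results. Calls were lost for HSP90B1 at both times, SDF2L1 and CALU at 48 hours, CANX and EDEM1 at 6 hours, and PDIA6 between the PGG times.

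At the methods' cut-offs, member genes higher and lower were 1 and 1 at 6 hours (0 and 1 by the methods' t-test), 6 and 0 at 48 hours (6 and 0), and 5 and 0 between the PGG times (5 and 0). Probe sets were 2 and 1 at 6 hours (1 and 1), 11 and 1 at 48 hours (11 and 1), and 9 and 0 between the PGG times (7 and 0). At an adjusted p under 0.05 the methods' t-test called 10 member probe sets lower at 6 hours in place of 17. Over single arrays left out, this count was 11 to 20, the translocon count at 6 hours 7 to 14, and the EF-hand count 1 to 2 at 6 hours and 2 to 4 at 48 hours. The EF-hand count at 6 hours was 1 by the t-test, and at 48 hours it was 2 by the t-test, with array weights and with the 2 groups alone.

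With the mean of all probe sets, HSPA5, called higher by its brightest probe set, was -0.31 at 48 hours against PBS and -0.12 between the PGG times. The other signs that turned in this way were of CANX (-0.06), PDIA6 (0.08) and SSR1 (0.31) at 48 hours, PDIA4 (0.04) and CALU (0.15) at 6 hours, and PDIA3 between the PGG times (-0.21), of which none was called by its brightest probe set. Calls lost with the mean were those of P4HB (0.23), SEL1L (0.17) and CALU (0.22) at 48 hours, SEC61B at 6 hours (0.13), and PDIA6, P4HB, DERL2, SSR1 and CALU between the PGG times. Calls lost by the t-test were those of HSP90B1, SDF2L1 and CALR at both times, EDEM1 at 6 hours, and CALU at 48 hours and between the PGG times. Under the other alternatives the sign turned only in differences that were not called. HSP90B1 between the PGG times (0.01) was -0.02 after quantile normalization and -0.06 to 0.08 over single arrays left out. Over single arrays left out, PDIA4 at 6 hours was -0.23 to 0.12, CALU at 6 hours -0.08 to 0.03, PDIA6 at 48 hours -0.10 to 0.01, and SDF4 -0.11 to 0.07 both at 48 hours against PBS and between the PGG times, where it was 0.01 with array weights. The cause was not tested. With 3 arrays per group, small differences near the threshold are the least certain, and dim probe sets give little signal over background.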
